A study of Homo sapiens with 18 samples.

Results

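The genes described here encode the subunits of oxidative phosphorylation, the respiratory chain and ATP synthase of mitochondria. They were chosen by a rule on gene symbols, from both count tables of the series, with earlier results of these data known. The rule gave 91 genes of 60683 gene rows, of which 13 lie on mitochondrial DNA and 78 on nuclear chromosomes. It left out 46 rows named as pseudogenes. MT-ATP6 and MT-ATP8 end in the same letters as a pseudogene symbol but were kept, because the rule asks for them by name. The mitochondrial members comprise 7 subunits of complex I, 1 of complex III, 3 of complex IV and 2 of complex V. The nuclear members comprise 37 subunits of complex I, 4 of complex II, 9 of complex III, 10 of complex IV and 18 of complex V. Complexes were assigned by gene symbol, so NDUFA4, since found with complex IV, is counted in complex I throughout. All 91 members passed the filter on low counts in both tables.

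Polyadenylated RNA was sequenced from HCT-116, an established line of human colorectal carcinoma cells, cultured in serum-supplemented DMEM. One table held 3 groups on an actin knockout background, named by their labels: Actin KO with an empty construct, ACTB-WT with wild-type actin over-expressed in the knockout, and ACTB-mut with the H73A form over-expressed in the knockout. The other table held SETD3_CT, a control, and the knockout lines SETD3_KO1 and SETD3_KO2. SETD3 is the methyltransferase of the actin histidine that H73A replaces. Each group had 3 libraries, and replicate 3 of SETD3_KO2 carries the cell line label HCT-117. The labels did not say whether replicates were separate cultures or whether a line was 1 clone, so p-values measure the spread between these libraries, which may be technical.

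In oxidative phosphorylation, electrons from NADH enter at complex I and electrons from succinate at complex II, and pass through complexes III and IV to oxygen. Complexes I, III and IV pump protons across the inner mitochondrial membrane, and complex V lets them back to make ATP. Mitochondrial DNA encodes core subunits of every complex except complex II and is transcribed from both strands into long precursors that are cut at the tRNAs, while the remaining subunits are made from nuclear genes and imported.

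Library totals ran from 5144386 to 11271910 counts in the actin table and from 3389586 to 11652967 in the SETD3 table, where SETD3_CT replicate 2 and SETD3_KO2 replicate 1 were the shallowest. The ACTB row stood at 14.9 to 24.9 CPM (counts scaled to a common library size with TMM) for Actin KO, 23.2 to 31.0 for ACTB-WT and 32.04 to 47.0 for ACTB-mut, against 662 to 1456 CPM across the SETD3 table. SETD3 stood at 14.0 to 36.0 CPM in SETD3_CT, 6.34 to 17.1 in SETD3_KO1 and 15.6 to 27.7 in SETD3_KO2. RNA levels of these genes therefore do not check the over-expression labels or the SETD3_KO2 label, and each direction below rests on the labels. All 8 colorectal epithelial markers had counts, with sums of 8021 to 13514 CPM over both tables. Blood markers summed to at most 1.67 CPM with PTPRC and CD3E at 0, fibroblast markers to at most 15.4 CPM with COL3A1 and LUM at 0, and neural markers to between 60.5 and 146 CPM with SNAP25 at 0 in the SETD3 table. Their part in the results was not tested.

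The mitochondrial members were very unequal in these libraries. MT-CO3, a core subunit of cytochrome c oxidase (complex IV, mitochondrial DNA 9207 to 9990), held 56.0% of their counts in the actin table and 56.5% in the SETD3 table. MT-ND1, a membrane-arm subunit of complex I (3307 to 4262), held 25.5% and 25.6%, and MT-CO1, the catalytic subunit of complex IV, held 7.27% and 7.74%. Per kilobase of transcript, MT-CO3 stood at 5495 CPM per kb in the actin table, MT-ND1 at 2019, MT-CO1 at 348 and MT-ND6, the only member on the other strand, at 346. MT-CO2, which lies between MT-CO1 and MT-CO3 on the same strand, stood at 137 CPM per kb, and MT-ND4L was lowest at 21.7. In the SETD3 table MT-CO3 was again highest, at 7517 CPM per kb, and MT-ND4L lowest, while MT-ND6 (511 CPM per kb) stood above MT-CO1 (475).

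MT-ND1 values are uncertain because a nuclear copy shares its reads. MTND1P23 on chromosome 1 (629062 to 629433, GRCh38) held 79713 counts in the actin table beside 144190 for MT-ND1, and 98.0% of all counts on nuclear copies of mitochondrial protein genes. The copy matches bases 605 to 956 of MT-ND1, counted from 1 at the 5′ end of its transcript, at 349 of 352 positions. The differences are G607A, G742A and A798G, with the MT-ND1 base first. The stretch around the last of these, from the GENCODE 29 transcripts, shows how little separates the pair (capitals mark the base that differs).
MT-ND1, chrM:4089-4118, plus strand: caagaccctacttctAacctccctgttctt
MTND1P23, chr1:629259-629288, plus strand: caagaccctacttctGacctccctgttctt
MT-ND1 ran from 976 to 4712 CPM over the 18 libraries and did not separate any groups. With the counts of nuclear copies added back, its log2 change was 0.65 (SE 0.34) for ACTB-mut against Actin KO and 0.67 (SE 0.34) against ACTB-WT, with edgeR adjusted p-values of 0.548 and 0.511.

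**Figure D1:**
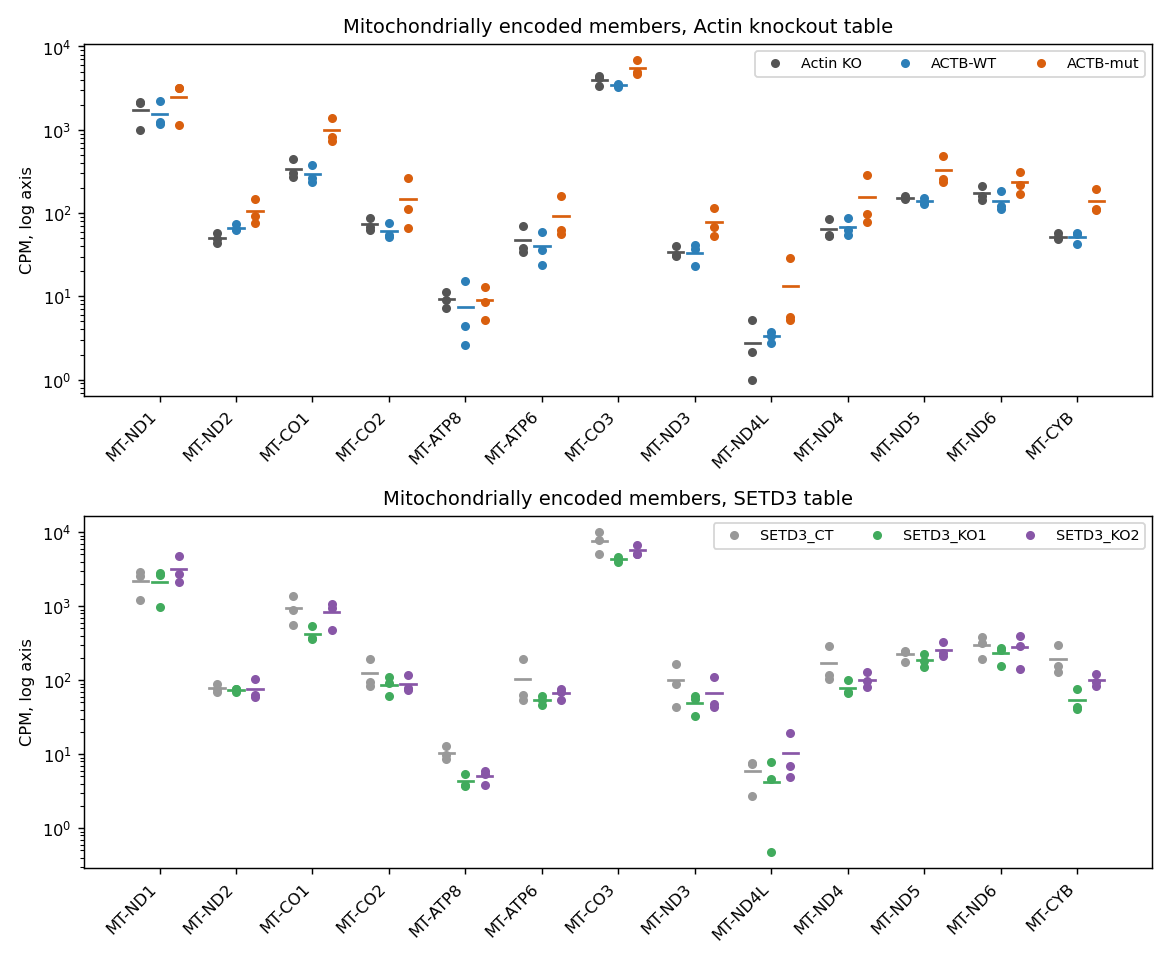
CPM on a log axis of the 13 mitochondrially encoded members, in their order along mitochondrial DNA, in the actin knockout table (top) and the SETD3 table (bottom). Points are the 3 libraries of a group and short bars their mean. ACTB-mut lies above both other groups in all 3 libraries for MT-ND2, MT-CO1, MT-CO3, MT-ND3, MT-ND4L, MT-ND5 and MT-CYB.

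The comparison of ACTB-mut with Actin KO asks what the H73A construct adds to the knockout. Of 13 mitochondrial members, 4 rose at an adjusted p below 0.05 (edgeR quasi-likelihood test, Benjamini-Hochberg over all genes tested) and none fell. Of the 78 nuclear members 1 fell, NDUFV3, and none rose. The median log2 change of mitochondrial members was 1.08, against 0.13 for nuclear members and 0.03 for all 13882 genes tested. The share of all genes called in this comparison, in either direction, was 0.922%.

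MT-CO1 had 447, 306 and 269 CPM for Actin KO, 239, 262 and 372 CPM for ACTB-WT, and 739, 820 and 1382 CPM for ACTB-mut. Every ACTB-mut library stood above all 6 others. The log2 change was 1.52 (SE 0.25, edgeR adjusted p = 0.0119) against Actin KO and 1.75 (SE 0.25, adjusted p = 0.00402) against ACTB-WT.

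MT-CYB, cytochrome b and the only mitochondrial subunit of complex III, had 50.9, 57.6 and 48.2 CPM for Actin KO, 56.9, 42.9 and 55.6 for ACTB-WT, and 113, 108 and 195 for ACTB-mut. Again the ACTB-mut libraries did not overlap the others, while Actin KO and ACTB-WT did. It rose by 1.41 on the log2 scale (SE 0.23, edgeR adjusted p = 0.00729) against Actin KO and by 1.42 (SE 0.23, adjusted p = 0.00594) against ACTB-WT.

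MT-ND5, a proton-pumping subunit of complex I, had 149, 151 and 161 CPM for Actin KO, 151, 130 and 135 for ACTB-WT, and 259, 237 and 479 for ACTB-mut. The 6 libraries without the mutant lay within a narrow range and all ACTB-mut libraries above it. The log2 change was 1.08 (SE 0.21, edgeR adjusted p = 0.0203) against Actin KO and 1.23 (SE 0.21, adjusted p = 0.00995) against ACTB-WT. MT-ND2, another membrane subunit of complex I, had 49.3, 43.9 and 57.1 CPM for Actin KO, 64.4, 62.1 and 73.2 for ACTB-WT, and 76.8, 93.3 and 148 for ACTB-mut. The 3 groups stood in steps without overlap. Only the step from Actin KO to ACTB-mut passed (log2 change 1.08, SE 0.23, edgeR adjusted p = 0.0312), and that from ACTB-WT to ACTB-mut had an adjusted p of 0.204.

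MT-CO3 had 4466, 4125 and 3365 CPM for Actin KO, 3509, 3287 and 3478 for ACTB-WT, and 4719, 4942 and 6879 for ACTB-mut. It passed against ACTB-WT (log2 change 0.69, SE 0.13, edgeR adjusted p = 0.0171) and not against Actin KO (0.47, SE 0.13, adjusted p = 0.13). All ACTB-mut libraries stood above the other 6, by little for the lower pair.

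The other mitochondrial members did not pass. MT-ND3, a small complex I subunit, had 30.6, 40.3 and 31.7 CPM for Actin KO and 53.0, 67.9 and 114 for ACTB-mut (log2 change 1.19, edgeR adjusted p = 0.0759). MT-ND4, MT-ND4L, MT-CO2 and MT-ATP6 had log2 changes of 1.27, 2.26, 1.02 and 0.96 and edgeR adjusted p-values from 0.233 to 0.389. The value of MT-ND4L rests on low counts, with 2.12, 0.98 and 5.14 CPM for Actin KO and a mean of 6.45 CPM over the actin table. MT-ATP8, a subunit of complex V that shares bases with MT-ATP6, had 8.66, 5.19 and 13.1 CPM for ACTB-mut beside 9.15, 11.3 and 7.30 for Actin KO.

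In ACTB-mut against Actin KO, 7 of 13 mitochondrial members had all 3 libraries above all 3, where 9.31% of all genes did, and 0 had all 3 below, where 9.16% did. Against ACTB-WT, 7 of 13 were again fully above, where 9.93% of all genes were, and 0 fully below, where 8.14% were. In that comparison 4 of 13 rose, the median log2 change was 1.22 and 1.24% of all genes were called. These comparisons share the ACTB-mut libraries. ACTB-mut replicate 3 had the highest value of the 9 libraries for 11 of 13 mitochondrial members and for 10 of 78 nuclear members. It also had the most MT-RNR1 and MT-RNR2, the mitochondrial ribosomal RNAs, with 1491 and 1271 CPM against at most 739 and 742 CPM in the other 8 libraries. The part of this library in the result was measured by leaving it out: the median log2 change of mitochondrial members became 0.44 against Actin KO and 0.56 against ACTB-WT.

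Without that library MT-CYB (log2 change 1.07, edgeR adjusted p = 0.0331) and MT-CO1 (1.19, adjusted p = 0.024) kept their calls against Actin KO, and MT-ND5 and MT-ND2 lost them. Without Actin KO replicate 1, 2 or 3 the count of all members called went from 5 to 3, 2 and 1. Without Actin KO replicate 3 no mitochondrial member passed in edgeR (MT-CYB log2 change 1.34, adjusted p = 0.0545, and MT-CO1 1.37, adjusted p = 0.0562), and without replicate 2 MT-CO1 did not. With limma-voom MT-CO1 passed neither against Actin KO (adjusted p = 0.072) nor against ACTB-WT (adjusted p = 0.07). Against ACTB-WT, MT-ND5 lost its call without ACTB-WT replicate 2, and MT-CO3 without any 1 ACTB-WT library or ACTB-mut replicate 3.

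In ACTB-WT against Actin KO no mitochondrial member passed in edgeR, and none had an unadjusted p below 0.05. DESeq2 and limma-voom called none either. The median log2 change was -0.18, with a range from -0.32 for MT-ATP8 to 0.41 for MT-ND2, and 1 of 13 members had all 3 libraries above all 3, where 7.64% of all genes did. All nuclear calls of this comparison fell: 2 of 78 members were lower, at 1.12% of all genes called.

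**Figure D2:**
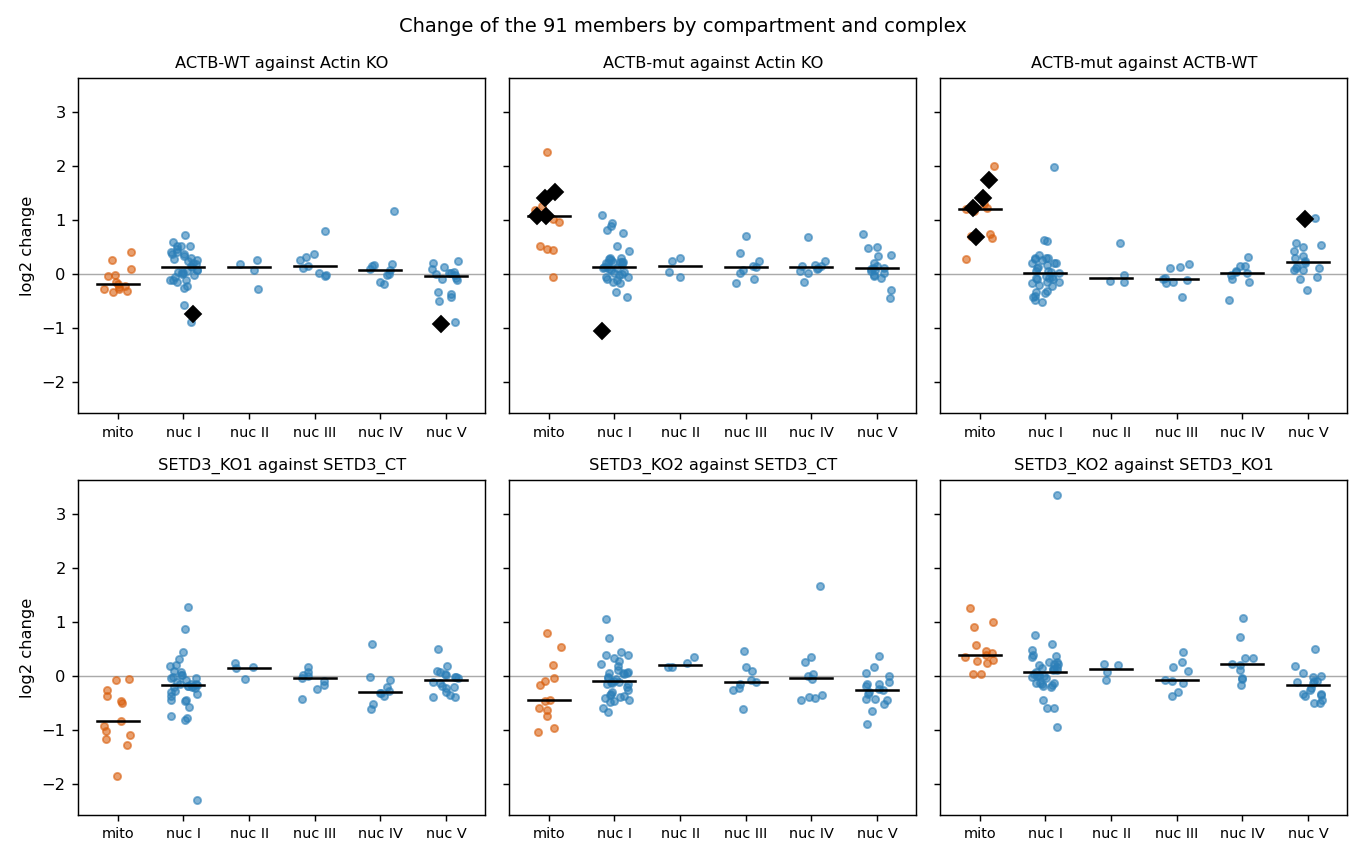
Log2 change of each of the 91 members in the 6 comparisons, by compartment (mito, mitochondrially encoded) and, for nuclear-encoded members (nuc), by complex I to V. Black bars are medians and black diamonds members with an adjusted p below 0.05. The mitochondrial medians of 1.08 and 1.22 in the ACTB-mut comparisons stand above every nuclear median, which lie between -0.30 and 0.22.

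In the SETD3 table no member passed in any comparison with edgeR. In SETD3_KO1 against SETD3_CT, 5 mitochondrial members had an unadjusted p below 0.05, all lower, and 8 nuclear members did, 1 higher and 7 lower. Over all genes 5.75% had an unadjusted p below 0.05, and edgeR called 0.0144%. DESeq2 called 3 members, MT-CYB, NDUFC2 and NDUFA4, and 0.52% of all genes, and limma-voom called 0 members. The median log2 change of mitochondrial members was -0.84, that of nuclear members -0.14 and that of all genes -0.02.

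MT-CYB had 127, 300 and 154 CPM in SETD3_CT, 75.9, 43.8 and 40.3 in SETD3_KO1, and 93.3, 121 and 84.4 in SETD3_KO2. The 3 groups did not overlap, with SETD3_CT highest and SETD3_KO1 lowest. The log2 change of -1.86 (SE 0.35) in SETD3_KO1 had an edgeR adjusted p of 0.181, and DESeq2 gave 2.32e-04. In SETD3_KO2 it was -0.96 (SE 0.34, edgeR adjusted p = 0.828).

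MT-CO1 had 1370, 887 and 565 CPM in SETD3_CT, 356, 534 and 370 in SETD3_KO1, and 476, 1079 and 956 in SETD3_KO2. SETD3_KO1 lay below SETD3_CT in every library (log2 change -1.16, SE 0.34, edgeR adjusted p = 0.608), and SETD3_KO2 overlapped both. MT-CO3 had 7947, 9998 and 5144 CPM in SETD3_CT, 4634, 3922 and 4380 in SETD3_KO1, and 5097, 5120 and 6800 in SETD3_KO2. SETD3_KO1 was fully below both other groups, which overlapped. Its log2 change in SETD3_KO1 was -0.84 (SE 0.21, edgeR adjusted p = 0.482).

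In SETD3_KO1 against SETD3_CT, 5 of 13 mitochondrial members had all 3 libraries below all 3, where 6.73% of all genes did, and 0 had all 3 above, where 6.47% did. In SETD3_KO2 against SETD3_CT it was 2 of 13 below, where 5.28% of all genes were, and 0 above, where 4.97% were. That comparison had a mitochondrial median of -0.44, 1 mitochondrial and 5 nuclear members with an unadjusted p below 0.05 (4.95% of all genes), 0 member calls in DESeq2 and limma-voom, and 0.0578% of all genes called in edgeR. Both comparisons share SETD3_CT. In SETD3_KO2 against SETD3_KO1 the mitochondrial median was 0.40, with all 13 values above 0 and 2 of 13 fully above, where 6.16% of all genes were. Of all 91 members 7 had an unadjusted p below 0.05 (4.84% of all genes), DESeq2 called 1 member (0.404% of all genes) and limma-voom 0, and edgeR called 0.0289% of all genes. None of the mitochondrial members was fully below, where 5.76% of all genes were.

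SETD3_CT replicate 2, one of the shallowest libraries, was highest of the 9 for 6 of 13 mitochondrial members. Without it the mitochondrial median was -0.42 in SETD3_KO1 and -0.06 in SETD3_KO2. With both of the shallowest libraries left out it was -0.42 and -0.015. MT-RNR1 had 813, 1804 and 1099 CPM in SETD3_CT, 486, 406 and 626 in SETD3_KO1, and 629, 374 and 405 in SETD3_KO2, so both knockout lines lay fully below the control without passing. Without MT-ATP6 and MT-ATP8 the mitochondrial median was -0.49 in SETD3_KO1 and -0.17 in SETD3_KO2, each against SETD3_CT.

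**Figure D3:**
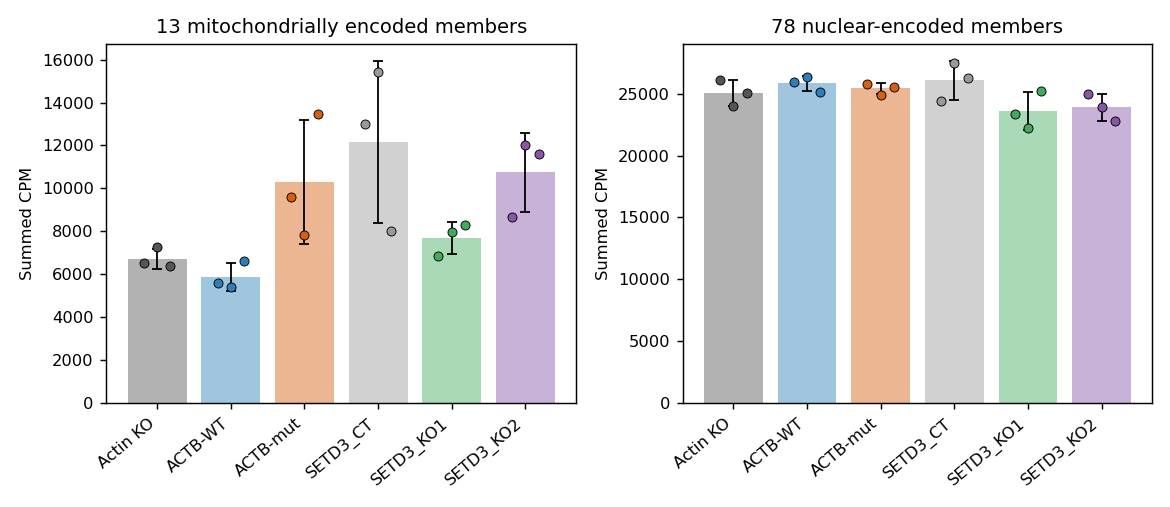
Summed CPM of the 13 mitochondrially encoded members (left) and the 78 nuclear-encoded members (right) in the 6 groups. Bars are means, error bars SD and points the 3 libraries. The nuclear sums stay between 22202 and 27518 CPM in all 18 libraries, and the mitochondrial sums run from 5427 to 15437.

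Set side by side, the compartments varied on different scales. The mitochondrial members summed to 6534, 7259 and 6394 CPM for Actin KO, 5569, 5427 and 6601 for ACTB-WT, and 9619, 7824 and 13459 for ACTB-mut. The ACTB-mut sums lay above the other 6. The nuclear members summed to 25036 ± 1043 CPM (SD, n = 3) for Actin KO, 25824 ± 597 for ACTB-WT and 25427 ± 465 for ACTB-mut, and these ranges overlap. As a percentage of the nuclear sum, the mitochondrial sum was 27.0 ± 2.88 for Actin KO, 22.8 ± 3.03 for ACTB-WT and 40.4 ± 11.0 for ACTB-mut. MT-CO3 and MT-ND1 dominate these sums. The other 11 mitochondrial members summed to 877 to 1073 CPM for Actin KO, 875 to 917 for ACTB-WT and 1698 to 3391 for ACTB-mut.

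In the SETD3 table the mitochondrial sums were 12996, 15437 and 8023 CPM in SETD3_CT, 6854, 7951 and 8280 in SETD3_KO1, and 8650, 12034 and 11580 in SETD3_KO2. SETD3_CT replicate 3 fell within the range of SETD3_KO1, and the other SETD3_CT libraries were above all 6 knockout libraries. The mitochondrial sum was 46.6 ± 14.0% of the nuclear sum in SETD3_CT, 32.7 ± 3.25% in SETD3_KO1 and 45.2 ± 9.21% in SETD3_KO2 (SD, n = 3 each). In bulk RNA, fewer cells of a type and less RNA per cell cannot be told apart, and the number of mitochondria per cell was not measured here.

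Among nuclear members, complex I, the entry point of electrons from NADH, had its highest level per kilobase in NDUFB10, an accessory subunit of the membrane arm, with 2172 CPM per kb in the actin table. The 37 complex I members had a median log2 change of 0.13 in ACTB-WT and 0.14 in ACTB-mut against Actin KO. One of them, NDUFV3, was called in each.

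NDUFV3, a small accessory subunit of the NADH-oxidising module (chromosome 21, 42879644 to 42913304, plus strand), had 367, 312 and 397 CPM for Actin KO, 216, 238 and 188 for ACTB-WT, and 214, 133 and 174 for ACTB-mut. Both construct groups lay below Actin KO in every library and overlapped each other. With ACTB-WT it fell by 0.74 on the log2 scale (SE 0.17, edgeR adjusted p = 0.0421). With ACTB-mut it fell by 1.05 (SE 0.17, edgeR adjusted p = 0.00721). The ACTB-WT call was lost when any 1 of the 6 libraries was left out, with adjusted p-values up to 0.178, and the ACTB-mut call was kept under each alternative run.

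NDUFA13, a complex I subunit also known as GRIM-19, had 305, 418 and 382 CPM for Actin KO, 559, 535 and 485 for ACTB-WT, and 477, 429 and 575 for ACTB-mut. Both construct groups were fully above Actin KO. Neither difference passed in edgeR (log2 change 0.52, adjusted p = 0.116, and 0.42, adjusted p = 0.213), and DESeq2 called the first with an adjusted p of 0.0208.

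NDUFA4, a small subunit first assigned to complex I and since found with complex IV, was a low-count member. It had 3.11, 2.11 and 1.21 CPM in SETD3_KO1, 18.8, 22.6 and 24.4 in SETD3_KO2, and 14.9, 10.9 and 5.81 in SETD3_CT. The knockout lines stood on opposite sides of the control without overlap. The log2 difference between them was 3.35 (SE 0.58, edgeR adjusted p = 0.0935), and DESeq2 gave an adjusted p of 9.95e-06.

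NDUFC2, a membrane subunit of complex I, had 214, 179 and 175 CPM in SETD3_CT, 313, 341 and 378 in SETD3_KO1, and 227, 247 and 215 in SETD3_KO2. SETD3_KO1 was fully above both other groups. Its log2 change against SETD3_CT was 0.86 (SE 0.18, edgeR adjusted p = 0.219, DESeq2 adjusted p = 0.00182). NDUFB11, NDUFS1 and NDUFA9 of complex I had the most negative values in SETD3_KO1 among nuclear members of at least 20 CPM, at -0.82, -0.78 and -0.75, and none passed.

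Complex II, succinate dehydrogenase, has no mitochondrially encoded subunit. Its 4 nuclear members had no call in any comparison and medians between -0.07 and 0.20. SDHB, the iron-sulfur subunit and its highest member per kilobase, had 238, 206 and 253 CPM for Actin KO, 245, 266 and 324 for ACTB-WT, and 279, 293 and 255 for ACTB-mut. ACTB-mut stood just above Actin KO without overlap, and ACTB-WT overlapped both.

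Complex III had no nuclear call in edgeR. CYC1, cytochrome c1 and its highest nuclear member per kilobase, had 1625, 876 and 1703 CPM for Actin KO, 1912, 1823 and 1545 for ACTB-WT, and 1451, 806 and 1692 for ACTB-mut. Replicate 2 was low in Actin KO and in ACTB-mut. MT-CYB of the same complex rose in ACTB-mut while the 9 nuclear members had a median log2 change of 0.13 there.

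Complex IV had no nuclear call in edgeR. COX4I1, the regulatory subunit of cytochrome c oxidase, had 1791, 1735 and 1659 CPM for Actin KO, 1736, 1668 and 1754 for ACTB-WT, and 1922, 1733 and 1730 for ACTB-mut. The groups overlapped. Its log2 change in ACTB-mut was 0.055 (SE 0.086) against Actin KO, beside 1.52 for MT-CO1 of the same complex. COX6B1, a subunit that joins complex IV monomers, had 409, 644 and 540 CPM in SETD3_CT and 330, 337 and 372 in SETD3_KO1 (log2 change -0.62, SE 0.20, edgeR adjusted p = 0.694).

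Complex V, ATP synthase, held the other nuclear member called. ATP5PF, coupling factor 6 of the peripheral stalk (chromosome 21, 25716503 to 25735673, minus strand), had 112, 114 and 134 CPM for Actin KO, 59.1, 71.1 and 60.5 for ACTB-WT, and 118, 140.5 and 131 for ACTB-mut. ACTB-WT stood alone and low, and the other groups overlapped. It fell by 0.92 on the log2 scale (SE 0.16, edgeR adjusted p = 0.00732) in ACTB-WT against Actin KO and differed by 1.03 (SE 0.16, adjusted p = 0.00395) between ACTB-mut and ACTB-WT. Both calls held under each alternative run. In ACTB-mut against Actin KO the change was 0.11 (SE 0.15, adjusted p = 0.877).

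The other 17 nuclear members of complex V were not called. ATP5F1D, the delta subunit of the rotor and the highest per kilobase, had 1683, 1714 and 1784 CPM for Actin KO, 1539, 1556 and 944 for ACTB-WT, and 1319, 1062 and 1428 for ACTB-mut. Both construct groups were fully below Actin KO, with log2 changes of -0.36 and -0.44 and edgeR adjusted p-values of 0.404 and 0.26. ATP5MG, a membrane subunit that links ATP synthase dimers, had 136, 129 and 128 CPM for Actin KO and 164, 203 and 193 for ACTB-mut (log2 change 0.51, edgeR adjusted p = 0.158, DESeq2 adjusted p = 0.0338). ATP5F1E, the epsilon subunit, was also fully above in ACTB-mut, with a log2 change of 0.49 (edgeR adjusted p = 0.183).

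Over all 78 nuclear members, 16 were fully above and 8 fully below in ACTB-WT against Actin KO, beside 7.64% and 9.08% of all genes. In ACTB-mut against Actin KO it was 16 above and 5 below, beside 9.31% and 9.16% of all genes. Against ACTB-WT it was 14 above and 6 below, beside 9.93% and 8.14%. In SETD3_KO1 against SETD3_CT 2 were fully above and 10 fully below, beside 6.47% and 6.73% of all genes. In SETD3_KO2 against SETD3_CT 5 were above and 6 below, beside 4.97% and 5.28%, and between the lines 5 above and 4 below, beside 6.16% and 5.76%. No nuclear member other than NDUFV3 and ATP5PF passed in edgeR as fitted here. DESeq2 called 3 nuclear members in ACTB-WT against Actin KO, beside 2.58% of all genes. It called 4 in ACTB-mut against Actin KO and 4 against ACTB-WT, beside 2.85% and 3.21% of all genes. In SETD3_KO1 against SETD3_CT it called 2, beside 0.52%, and between the lines 1, NDUFA4, beside 0.404%.

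Both called nuclear members lie on chromosome 21, which carries 1 more, ATP5PO, the stalk subunit that holds the catalytic head (33903453 to 33915980, minus strand). ATP5PO had 236, 233 and 187 CPM for Actin KO, 176, 175 and 142 for ACTB-WT, and 192, 277 and 228 for ACTB-mut. It was fully below in ACTB-WT without passing (log2 change -0.41, SE 0.16, edgeR adjusted p = 0.303). The median log2 change of all 82 genes of at least 10 CPM on this chromosome was -0.495 in ACTB-WT against Actin KO, the lowest of 23 chromosomes, and 82.9% of them were below 0. The next lowest median was -0.10 on chromosome 7. In ACTB-mut the chromosome 21 median was -0.26, again the lowest, and 0.25 in ACTB-mut against ACTB-WT, the highest. Copy number was not measured here, and the part of the chromosome in the changes of NDUFV3 and ATP5PF was not tested.

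**Figure D4:**
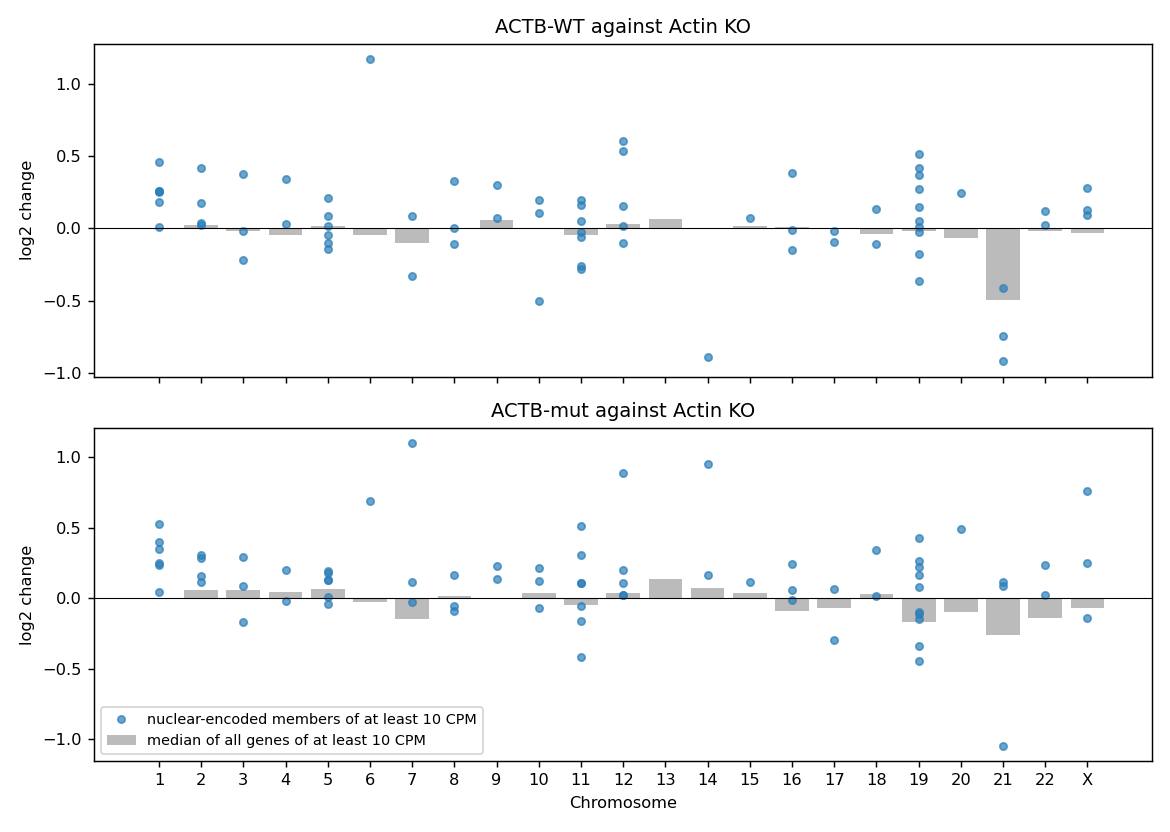
Log2 change by chromosome in ACTB-WT (top) and ACTB-mut (bottom) against Actin KO. Grey bars are medians of all genes of at least 10 CPM and points are nuclear-encoded members at that level. The chromosome 21 bar is lowest in both, at -0.495 and -0.26, with all 3 of its members below 0 at the top and only NDUFV3 below 0 at the bottom.

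The 150 bases before the RefSeq start of each of these 3 genes (GRCh38.p14, written along the gene) are shown because all 3 members of this chromosome lay fully below Actin KO in ACTB-WT. Capitals mark the cores searched on both strands: CCGGAAG (bound by GABPA and other ETS factors), GCGCATGC (NRF1), AAGATGGC (YY1) and GGGCGG (SP factors).
ATP5PF, chr21:25735055-25735204, minus strand: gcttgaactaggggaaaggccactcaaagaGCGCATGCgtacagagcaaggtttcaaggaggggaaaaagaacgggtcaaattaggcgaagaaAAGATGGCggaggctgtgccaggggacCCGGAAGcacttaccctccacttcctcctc
NDUFV3, chr21:42893159-42893308, plus strand: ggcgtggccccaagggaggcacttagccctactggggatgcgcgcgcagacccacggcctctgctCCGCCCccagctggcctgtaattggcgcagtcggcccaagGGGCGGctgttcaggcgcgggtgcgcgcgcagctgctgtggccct
ATP5PO, chr21:33915805-33915954, minus strand: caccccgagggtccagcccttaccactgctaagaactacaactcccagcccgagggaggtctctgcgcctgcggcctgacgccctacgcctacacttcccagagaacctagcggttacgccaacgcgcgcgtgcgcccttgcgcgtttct
ATP5PF has the NRF1, YY1 and ETS cores, NDUFV3 has the SP core on each strand, and ATP5PO has none of the 4 in this stretch. Of 64 nuclear members matched to a 300 base RefSeq window around the start, 20 (31.2%) held the ETS core, against 10.2% of all 34943 windows. The NRF1 core was in 13 (20.3%, against 3.02%), the YY1 core in 11 (17.2%, against 2.89%) and the SP core in 39 (60.9%, against 44.9%). The median GC content was 61.2% in the members' windows and 58.7% in all windows. A match is a string in a window and shows no binding.

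Members of lower GC content had lower levels. Spearman's rho between GC content and CPM per kb over the 78 nuclear members was 0.68 in the actin table and 0.69 in the SETD3 table, a description over genes that share libraries and are not independent replicates. It was 0.28 and 0.30 over all 7106 and 7120 genes of at least 10 CPM. UQCRB, a ubiquinone-binding subunit of complex III with 38.3% GC, stood at 0.63 CPM per kb, and NDUFA5 of complex I, with 36.4% GC, at 0.777. COX7B, at 41.5% GC, stood at 4.30 CPM per kb beside 2002 for COX4I1 of the same complex at 56.6% GC. COX7C, at 39.0% GC, was an exception with 309 CPM per kb. Lengths are those of the annotated principal transcript, which may be longer than the RNA these cells make.

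GC content also went with the change in ACTB-mut. Over the 78 nuclear members rho between GC content and the log2 change against Actin KO was -0.59 in ACTB-mut and -0.08 in ACTB-WT, and over all genes of at least 10 CPM it was -0.34 and -0.04. For ACTB-mut against ACTB-WT rho was -0.42 over the nuclear members and -0.29 over all genes at that level. With GC and length offsets the mitochondrial median in ACTB-mut was 0.79 against Actin KO and 0.94 against ACTB-WT, and the nuclear medians became 0.01 and -0.08. MT-ND5 and MT-ND2 then lost their calls against Actin KO, and MT-CO3 its call against ACTB-WT.

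**Figure D5:**
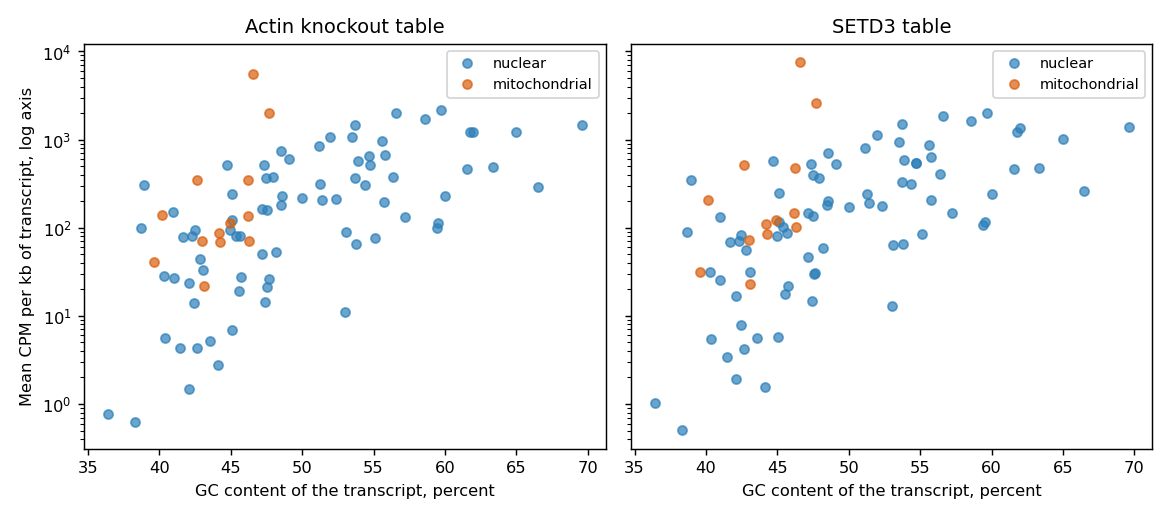
Mean CPM per kb of transcript (log axis) against the GC content of the transcript for nuclear-encoded and mitochondrially encoded members, in the actin knockout table (left) and the SETD3 table (right). Nuclear members of low GC content sit low, with UQCRB at 0.63 CPM per kb, and those of high GC content sit high, and MT-CO3 is the highest point of both panels at 5495 and 7517.

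Genes that act on these subunits were read from lists of names. Of 52 assembly factors, which build the complexes, none passed in edgeR in any of the 6 comparisons. An unadjusted p below 0.05 was found for 3 in ACTB-WT and 4 in ACTB-mut against Actin KO. The shares of all genes were 11.2% and 11.5%. The medians of the assembly factors there were 0.00 and 0.16. DESeq2 and limma-voom were not read for these lists. Of 14 genes for upkeep and transcription of mitochondrial DNA and 12 nuclear regulators tested in the actin table, none passed in edgeR. At an unadjusted p below 0.05 there were 1 and 2 in ACTB-WT against Actin KO, where 11.2% of all genes were. For ACTB-mut against Actin KO it was 1 of each list, where 11.5% of all genes were. Of 19 genes of mitochondrial RNA processing and decay, 1 passed in edgeR. At an unadjusted p below 0.05 there were 5 of 19 in ACTB-WT against Actin KO, 1 higher and 4 lower, where 11.2% of all genes were. In ACTB-mut against ACTB-WT there were 8 of 19, 7 higher and 1 lower, where 12% of all genes were. For ACTB-mut against Actin KO it was 3 of 19, where 11.5% of all genes were. FASTK, a mitochondrial RNA-binding protein known to stabilise MT-ND6 mRNA, had 82.9, 92.7 and 82.9 CPM for Actin KO, 42.8, 33.2 and 45.8 for ACTB-WT, and 33.9, 38.9 and 41.4 for ACTB-mut. Both construct groups stood fully below Actin KO. It fell by 1.09 on the log2 scale (SE 0.20, edgeR adjusted p = 0.0118) and by 1.18 (SE 0.20, adjusted p = 0.0104). MT-ND6 had 160, 213 and 143 CPM for Actin KO, 111, 184 and 122 for ACTB-WT, and 218, 170 and 315 for ACTB-mut. All groups overlapped and none was called. A link between FASTK and MT-ND6 was not tested. The strand option of the counts is not given, so the strand of the MT-ND6 reads is not known here.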

How the data were processed

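RNA levels were taken from 2 tables of RSEM expected counts per gene, deposited by the authors without normalisation. Per the submitters' processing notes, the tools were RSEM 1.2.28, Bowtie2, Trim Galore 0.4.5 and cutadapt 1.15, with GRCh38 as the build. Which gene annotation and strand option they used is not given in the sources used here. RSEM divides reads shared by similar genes, which touches MT-ND1 and its nuclear copies.

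Counts were rounded and each table was fitted with its 3 groups in edgeR 4.0.16 (R 4.3.3): filterByExpr, TMM scaling and robust quasi-likelihood tests, two-sided, with Benjamini-Hochberg adjustment over all 13882 or 13846 genes tested. A call is an adjusted p below 0.05. SE is the absolute log2 change divided by the square root of F. The script was tested on simulated data. Coordinates, length and GC content came from GENCODE 29, promoter windows from RefSeq (GRCh38.p14), which matched 64 of 78 nuclear members.

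The members and lists were chosen with earlier results of these data known. Named are all mitochondrial members, members called, the 5 highest and lowest changes among nuclear members of at least 20 CPM in each comparison, described by examples, and the highest nuclear member per kilobase of each complex. NDUFA4, ATP5MG, ATP5PO and the lowest members by GC content were described after their values were seen. Alternatives were DESeq2 1.42.0, limma-voom 3.58.1, other scalings, no filter, GC and length offsets, nuclear copies added back, a replicate block and leaving out libraries.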

Additional observations from a re-analysis of the deposited data

Results flagged for a closer look

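Both construct groups on the knockout background were compared directly, as ACTB-mut against ACTB-WT, and 5 members differed at an edgeR adjusted p below 0.05. The labels do not say whether both groups came from the same knockout clone. The difference in log2 change, ACTB-mut minus ACTB-WT, was 1.75 for MT-CO1, 1.42 for MT-CYB, 1.23 for MT-ND5 and 0.69 for MT-CO3, with adjusted p-values of 0.00402, 0.00594, 0.00995 and 0.0171, and all 3 ACTB-mut libraries were higher. It was 1.03 for ATP5PF (adjusted p = 0.00395), where ACTB-WT was low and ACTB-mut overlapped the knockout. ATP5PF lies on chromosome 21, whose median in this comparison was 0.25, the highest of 23 chromosomes. The part of the chromosome was not tested.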

How the results depend on the processing

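Outside ACTB-WT against Actin KO, directions of the mitochondrial medians were the same under all alternatives run. In that comparison the median of -0.18 was smaller than the SD of such medians between libraries of a group (0.35), so its direction is not read. DESeq2 called 10 members in ACTB-mut against Actin KO, 9 in ACTB-mut against ACTB-WT, 3 in SETD3_KO1 against SETD3_CT and 1 in SETD3_KO2 against SETD3_KO1. In these comparisons it called 2.85%, 3.21%, 0.52% and 0.404% of all genes, and edgeR 0.922%, 1.24%, 0.0144% and 0.0289%. Without the filter on low counts the member calls were 13, 14, 4 and 2. limma-voom called 3 members in ACTB-mut against ACTB-WT, beside 1.19% of all genes. Shares of all genes called without the filter, under the offsets, under the replicate block or without a library are not given here. Those counts cannot be set against all genes. GC and length offsets gave 3 calls in ACTB-mut against Actin KO and 1 between the SETD3 lines. Under them the nuclear medians were 0.0128 in ACTB-mut against Actin KO, -0.0751 against ACTB-WT and -0.0641 in SETD3_KO1 against SETD3_CT, and NDUFB4 had -0.004667 in ACTB-mut against Actin KO in place of 0.29. The cause was not tested. Leaving out MT-ATP6 and MT-ATP8, or the shallowest pair of libraries, each chosen after seeing the data, gave SETD3 mitochondrial medians of -0.49 and -0.42 in SETD3_KO1 and -0.17 and -0.015 in SETD3_KO2.

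Replicate numbers did not pair the libraries: correlations of same-numbered libraries ran from -0.58 to 0.23. Differently numbered libraries of different groups ran from -0.54 to 0.57 in the SETD3 table. The highest value was between SETD3_CT replicate 2 and SETD3_KO2 replicate 1, the shallowest pair. Some SETD3 libraries thus varied together across groups, and the source of this was not tested. A replicate block gave 1, 5 and 4 calls in the actin comparisons and 0 in the SETD3 comparisons. NDUFV3 in ACTB-WT (adjusted p = 0.0864) and MT-CO3 in ACTB-mut against ACTB-WT (0.0608) lost their calls under the block.

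Leaving out 1 library at a time gave 1 call each time in ACTB-WT against Actin KO. It gave 1 to 5 in ACTB-mut against Actin KO and 3 to 6 in ACTB-mut against ACTB-WT. Mitochondrial medians ran from 0.44 to 1.27 in ACTB-mut against Actin KO and from 0.56 to 1.42 in ACTB-mut against ACTB-WT. They ran from -1.05 to -0.42 in SETD3_KO1 and from -0.63 to -0.0628 in SETD3_KO2. Nuclear medians ran from 0.033 to 0.11, 0.0853 to 0.15 and 0.0153 to 0.0718 in the actin comparisons, and from -0.22 to -0.0591 in SETD3_KO1 and -0.0332 to 0.0866 between the lines. Single results were followed for the 44 members with an unadjusted p below 0.05 in a comparison of these data, 85 results in all. Of their alternatives, 1144 kept direction and call status, 32 lost a call, 39 gained one and 1 reversed. Most of the 85 were not called, so they could not lose a call. All 32 losses fall on the called results, 2, 5 and 5 in the actin comparisons, so the 1144 does not measure how firm those calls are. How small a difference these depths could show for members of low counts, such as MT-ND4L and MT-ATP8, was not tested.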
